A study of Sus scrofa with 5 samples.

Results

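The cecal epithelium of piglets at 7 days of age (d7) was set beside that at 1 day of age (d1), with 1 single-cell library at each age. Epithelial cells were chosen by measured values. A cell was taken where at least 200 genes were detected, where under 30% of its unique molecular identifiers (UMIs, the tags that count single RNA molecules) lay on the 13 mitochondrially encoded genes, where EPCAM, KRT8, KRT18 and KRT19 together gave at least 4 UMIs with 2 of these genes detected, and where the leukocyte gene PTPRC had 0 UMIs. This rule took 4143 of 14142 cells at d1 (29.3%, exact Clopper-Pearson 95% interval 28.5 to 30.1) and 323 of 10272 cells at d7 (3.14%, 2.82 to 3.50), in all 4466 of the 24414 cells of both libraries and of the 72701 cells of the series. Just outside the marker limit, with 3 marker UMIs and 2 markers detected, lay 637 cells at d1 and 39 at d7, and just inside it, with 4 marker UMIs, lay 309 and 9. Of the marker-positive cells, 353 of 4496 at d1 (7.85%) and 222 of 545 at d7 (40.7%) had a PTPRC UMI and were left out.

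The study followed the cecum of Large White piglets through 5 ages from birth (d0) to d21. All piglets were male and had only maternal milk, and neither group carried a treatment or a modified gene. At each age the mucosa of the cecum was scraped off, dissociated with EDTA and then trypsin, and the cells of 5 piglets were pooled before droplet-based 3' RNA sequencing on the 10x platform. Each library is thus a single pool, and the comparison is a description of this pair of pools, with neither a test nor p-values. Age cannot be told apart from library here. Intervals are exact 95% intervals for counting error only and do not cover the spread between piglets.

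The newborn large intestine is lined by an epithelium that resembles that of the small intestine in part, with villus-like folds, digestive enzymes on the brush border and the means to take up fat and whole proteins from milk. These features recede after birth, while crypts form, stem cells at the crypt base renew the lining, and cells facing the lumen turn to the absorption of salt and water and of short-chain fatty acids made by bacteria. Goblet cells secrete mucus, enteroendocrine cells secrete hormones, and tuft cells are rare chemosensory cells.

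As the level of a gene, its UMIs were summed over the epithelial cells of a library and divided by all their UMIs, times 10000. A summed level does not tell more cells of a kind from more RNA per cell. The sums rested on 49158861 UMIs at d1 and 7410584 at d7, so that a count of 0 allows, at 3 counts, a level of up to 0.000610 at d1 and 0.00405 at d7. Cells at d7 were deeper, with a median of 14663 UMIs and 3474 genes against 8692 UMIs and 2494 genes at d1, and the tenth of cells with most UMIs carried 39.1% of the d7 sum (33 cells) and 33.7% of the d1 sum (415 cells). As a comparator, PTPRC-positive cells without the epithelial markers, called immune cells here, had a median of 3314 UMIs at d1 and 2962.5 at d7. The 2 epithelial sets shared 2 cell barcodes.

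Epithelial genes that the rule did not use fitted the label. CDH1, the adherens junction cadherin, was at 3.05 at d1 and 3.12 at d7, and CLDN7, a tight junction protein, at 10.7 and 11.4, against 0.256 and 0.103 and against 0.622 and 0.0907 in immune cells. CDH17 was at 4.19 and 3.38, CLDN3 at 5.17 and 2.92, and ELF3, an epithelial transcription factor, at 4.55 and 2.75. Of the genes that chose the cells, EPCAM was at 17.2 at d1 and 13.1 at d7, KRT8 at 24.0 and 56.9, KRT18 at 1.81 and 6.47, and KRT19 at 24.7 and 51.4, which is given as a description only.

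RNA of other cell types was present in both sets and differed between them. The summed level of 17 fibroblast, pericyte and smooth muscle markers was 5.85 at d1 and 0.619 at d7, and that of 12 endothelial markers 3.68 and 0.189, with 1 and 6 of these markers at 0 at d7. In the opposite direction, 17 T and NK cell markers summed to 0.219 at d1 and 1.09 at d7 and 7 erythroid markers to 0.0419 and 7.32. Markers of B and plasma cells summed to 0.558 and 0.729, and those of myeloid and mast cells to 0.681 and 0.600. At least 2 UMIs of any of these lists were found in 74.8% of the epithelial cells at d1 and 82.0% at d7, but the lists behind these shares differed. The shares given here are of cells at their full depth, which was greater at d7. T and NK cell markers reached 2 UMIs in 1.52% of cells at d1 and 50.5% at d7 and erythroid markers in 0.217% and 32.2%, against 36.5% and 5.88% for fibroblast, pericyte and smooth muscle markers and 24.1% and 8.05% for endothelial markers. Leaving out the cells with at least 2 UMIs of these lists left 1043 cells at d1 and 58 at d7. The cells left out are called cells holding other-cell markers, or other markers, here. Cells with 1 such UMI stayed in. Without cells holding other-cell markers the log2 ratio of HBB, the beta globin of red cells, went from 6.02 to 1.76. HBB is itself an erythroid marker, so every cell with at least 2 of its UMIs was left out by construction. In this setting 3 of 106 named genes past 2-fold changed sign. Of HBB at d7, 92.1% of the UMIs lay in 5 cells.

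Of 16879 genes with a UMI in either set, 5504 had a mean of both levels of at least 0.2 and entered the comparison. At least 2-fold higher at d7 were 246 of them (4.47%), and at least 2-fold lower were 303 (5.51%), on the log2 ratio of levels with 0.1 added to both, which understates the difference of low genes. At least 4-fold higher were 0.781% and at least 4-fold lower 1.47%. The median log2 ratio over all of these genes was 0.05. The limit of 2-fold cut through a dense range of genes, with 45 genes higher by a log2 ratio of 1 to 1.1 and 47 by 0.9 to 1, and 45 and 50 genes lower by the same amounts. These shares are the background for the counts of each gene list.

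**Figure D1:**
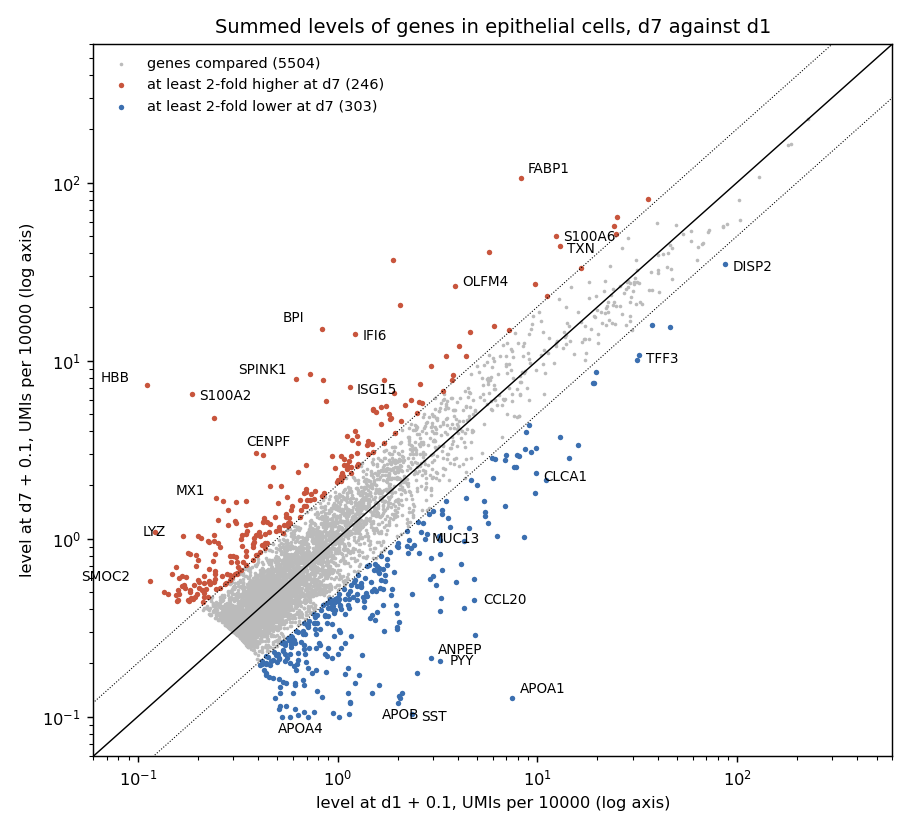
Each point is 1 of 5504 genes, with its summed level in epithelial cells at d1 on the horizontal axis and at d7 on the vertical axis (UMIs per 10000 with 0.1 added, log axes). The 246 genes at least 2-fold higher at d7 lie above the upper dotted line and the 303 genes at least 2-fold lower lie below the lower one, with FABP1, BPI and S100A2 far above and APOA1, PYY and ANPEP far below the line of equal levels.

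Genes of the brush border list, most of them digestive enzymes, were lower at d7 almost throughout. The list, called brush border enzymes here, also held SMIM24, TMIGD1 and PRAP1, which are not digestive enzymes. Of 11 listed genes that entered, 9 were at least 2-fold lower (81.8%, against 5.51% of all genes). Of these, 7 were at least 4-fold lower (against 1.47% of all genes), and 0 listed genes were at least 2-fold higher (against 4.47%). The median log2 ratio was -2.16. ANPEP, the aminopeptidase N that trims peptides at the cell surface, was at 2.82 at d1 and 0.113 at d7, which was 24.9-fold lower (20.1 to 31.3). MEP1B, a subunit of the protease meprin, was at 1.02 and 0.0351 (29.2-fold lower), and the peptidase NAALADL1 at 1.39 and 0.0364 (38.3-fold lower). The membrane protein SMIM24 was at 1.95 at d1 and at 0.0270 at d7, from 20 UMIs. DPEP1, a dipeptidase, was at 3.22 and 0.569, and ENPEP, the aminopeptidase A, at 0.909 and 0.126. The smallest difference in the list was that of TMIGD1, with 4.66 and 3.94. In single cells thinned to 1000 UMIs, ANPEP had a UMI in 20.9% at d1 and 0.337% at d7, against 2.71% and 0.190% of immune cells, so that the d7 share lay near the background.

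Genes of the microvillus scaffold differed less than those of the brush border list. Of 19 genes that build it, 3 were at least 2-fold lower (15.8%, against 5.51% of all genes) and 0 higher, with a median of -0.26. VIL1, the actin bundler villin, was at 1.57 at d1 and 1.53 at d7 (ratio 1.02, 0.959 to 1.09). Without cells holding other-cell markers the log2 ratio of VIL1 was -1.03 and the median of the list -0.62. The genes past the limit were PDZK1, an anchor for apical transporters, at 2.01 and 0.0364 (55.1-fold lower, 37.8 to 83.6), ESPN, another actin bundler, at 0.915 and 0.389, and EPS8L3 at 1.55 and 0.696.

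Apolipoprotein genes for packing dietary fat into chylomicrons were near 0 at d7, whereas FABP1 was far higher. APOA1, an apolipoprotein of these particles, was at 7.40 at d1 and 0.0270 at d7, with 36371 and 20 UMIs, which was 274-fold lower (178 to 449). APOA4, another apolipoprotein, which lies close by on chromosome 9 (Sscrofa11.1, RefSeq, APOA4 from 44201587 to 44204072 and APOA1 from 44216481 to 44218360) was at 0.923 at d1 and had 0 UMIs at d7, at least 228-fold lower. APOB, the structural protein of the particle, was at 1.90 and 0.0189 (101-fold lower, 60.0 to 184), and RBP2, which binds retinol in enterocytes, at 4.19 and 0.306 (13.7-fold lower). Of 15 genes of lipid uptake that entered, 7 were at least 2-fold lower (46.7%, against 5.51% of all genes). FABP1 was the 1 gene higher by that fold (6.67%, against 4.47%). At d1, APOA1 had a UMI in 24.96% of thinned epithelial cells and in 11.1% of immune cells, and its level in immune cells was 1.48, so part of the d1 signal was also seen outside the epithelium.

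FABP1, the liver-type fatty acid binding protein that carries fatty acids in the cytosol, was at 8.17 at d1 and 105 at d7, which was 12.9-fold higher (12.7 to 13.1). The gene lies on chromosome 3 (57850511 to 57854966). Its level at d7 was uneven between cells, with a median of 9.15 per 10000 and a 90th percentile of 320, against 4.11 and 20.4 at d1. A UMI of FABP1 was found in 53.2% of thinned cells at d7 and 40.2% at d1, against 11.5% and 6.33% of immune cells. Over the other ages it was at 26.2 at d0, 4.54 at d14 and 2.76 at d21, so d7 stood above each of them. FABP2, the intestinal-type protein, was at 0.0504 at d1 and had 1 UMI at d7 (0.00135). The list as a whole made up a median of 0.171% of a cell's UMIs at d1 and 0.158% at d7, while the upper quartile went from 0.365% to 1.95%.

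Several nutrient carriers and some genes for taking up whole proteins were also lower. Of 15 carriers of sugars, amino acids, peptides, bile acids and vitamins that entered, 8 were at least 2-fold lower and 0 higher, with a median of -1.03. The 8 were 53.3% of these carriers, against 5.51% of all genes. SLC6A19, the main carrier of neutral amino acids, was at 0.428 at d1 and at 0 UMIs at d7, at least 106-fold lower, and SLC5A1, the sodium and glucose cotransporter, at 0.555 and 0.162. Among 20 endocytic and lysosomal genes, 5 were at least 2-fold lower and 1 higher (25% and 5%, against 5.51% and 4.47% of all genes). DAB2, an adaptor that loads receptors into coated pits, was at 3.19 and 0.366 (8.73-fold lower), AMN, the partner of the uptake receptor cubilin, at 0.786 and 0.119, and LGMN, a lysosomal protease, at 1.26 and 0.312. CTSH, another lysosomal protease, was the higher gene, at 1.15 and 2.46, and its log2 ratio of 1.04 became 0.41 without cells that passed a goblet, tuft or enteroendocrine gate, called secretory-gate cells here (each gate is a set of marker genes, given with its class). That setting left 2246 cells at d1 and 174 at d7. In cells of none of these gates nor of the cycling gate CTSH was at 1.18 and 2.00. At d7 these cells held more RNA of some other cell types than cycling-gate cells, as given below. DAB2 and LGMN were also at 1.77 and 3.48 in immune cells at d1.

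Other genes among the lowest ratios were EDN1, the vasoactive peptide endothelin 1, at 4.72 at d1 and 0.495 at d7, TM4SF20 at 3.15 and 0.294, IGSF23 at 1.94 and 0.239, and C7H6orf222 at 4.77 and 0.186. IGFBP7 was at 2.40 and 0.0769, but it was at 4.14 and 0.204 in immune cells, and its log2 ratio of -3.82 became -2.31 without cells holding other markers. Enzymes of arginine synthesis and the urea cycle had 4 of 8 genes at least 2-fold lower (50%, against 5.51% of all genes) and 0 higher. Among the lower genes, OAT, the ornithine aminotransferase, was at 1.75 and 0.385.

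**Figure D2:**
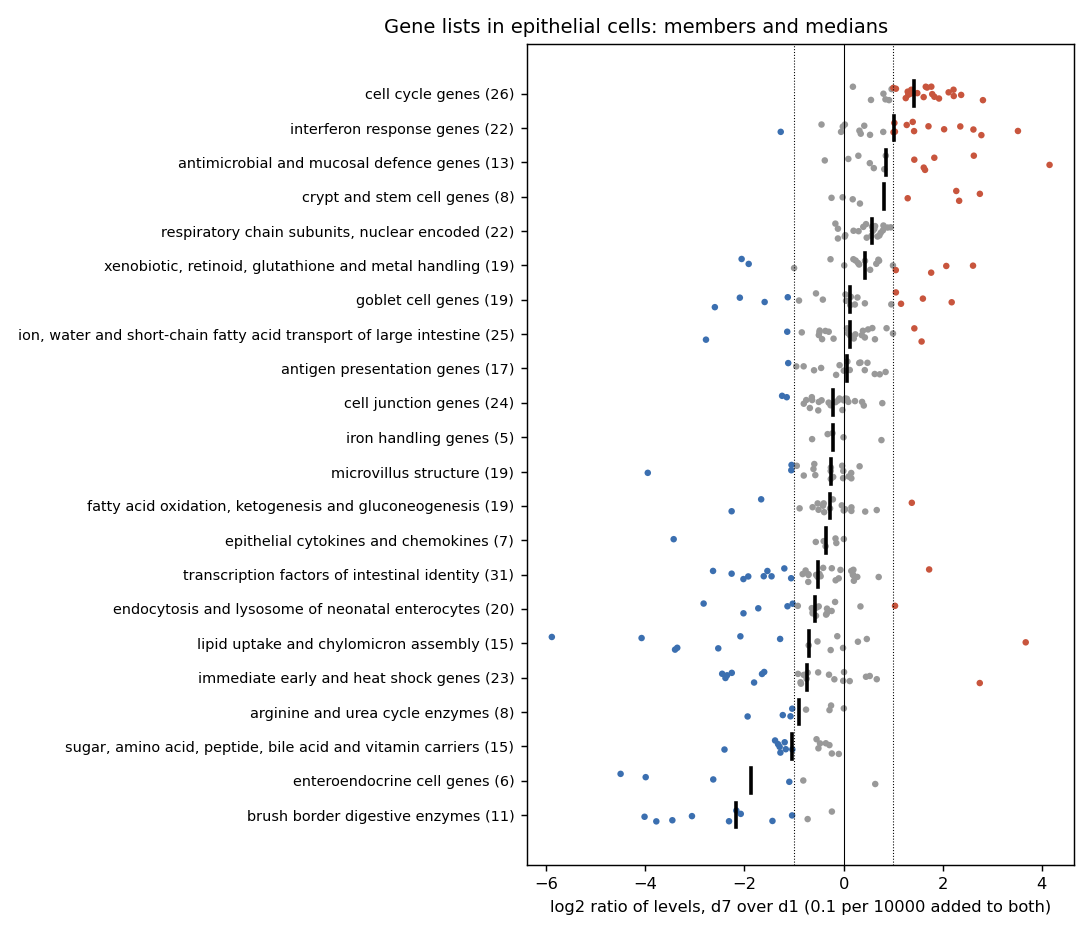
Each small point is 1 gene of a list, placed at its log2 ratio of the summed level at d7 over that at d1, and each bar marks the median of the list, for the lists with at least 5 genes that entered, without those of other cell types. Brush border enzymes (median -2.16) and enteroendocrine genes (median -1.86) lie lowest among the lists drawn, and cell cycle genes (median 1.43) and interferon response genes (median 1.02) lie highest.

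Part of a mixed list of intestinal transcription factors and other regulators was lower at d7. Of 31 members that entered, 9 were at least 2-fold lower (29.0%, against 5.51% of all genes), and 1 was higher (3.23%, against 4.47%). The median was -0.52. PRDM1, the repressor that upholds the suckling-type state of the mouse intestine, was at 0.513 at d1 and 0.0513 at d7 (10.0-fold lower, 7.27 to 14.2), although its level in immune cells also differed, at 0.996 and 0.272. NR1H4, the bile acid receptor, was at 0.611 and 0.0877, CREB3L3, a regulator of lipid genes, at 0.449 and 0.0148, and BHLHE40 at 1.88 and 0.220. CDX2, the factor that specifies hindgut epithelium, was at 2.59 and 2.98. ID3, an inhibitor of helix-loop-helix factors, was the higher gene, at 1.12 and 3.94.

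Transport of salt and water had no shared direction. Of 25 genes of ion, water and short-chain fatty acid transport, 2 were at least 2-fold higher and 2 lower, with a median of 0.13. These were 8% each, against 4.47% and 5.51% of all genes. SLC9A3, the apical exchanger of sodium for protons, was at 1.16 at d1 and 3.65 at d7 (3.15-fold higher), and KCNQ1, a potassium channel, at 0.304 and 0.986. SLC26A3, the exchanger of chloride for bicarbonate, was at 2.57 and 1.12, and CLCA4 at 3.82 and 0.472 (8.08-fold lower). The log2 ratio of SLC9A3, 1.57, was 0.41 without secretory-gate cells, yet its level was 1.06 at d1 and 3.42 at d7 in cells of none of the 4 gates and 0.543 and 2.06 in cycling-gate cells. BEST4 and OTOP2, which mark a rare absorptive cell, were at 0.0427 and 0.0287 at d1 and at 0.0256 (19 UMIs) and 0.0108 (8 UMIs) at d7, too low to enter. S100G, which binds calcium in absorptive cells, was at 37.4 and 15.6, and DISP2 was at 86.9 and 34.7, the latter with 0.405 to 5.25 in immune cells. The counts given to DISP2 may include reads of a neighbouring gene, which was not tested.

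Among 24 junction genes, 2 were at least 2-fold lower (8.33%, near the 5.51% of all genes) and 0 higher. The lower genes were OCLN, the tight junction protein occludin, at 0.764 and 0.266, and CLDN4 at 8.64 and 3.85. KRT20, a keratin of differentiated cells that the rule did not use, was at 7.09 at d1 and 14.7 at d7, and its log2 ratio of 1.04 became 0.19 without secretory-gate cells, while in cells of none of the 4 gates it was at 6.84 and 17.7. The S100 genes S100A2 and S100A6, which lie in the same stretch of chromosome 4 (96073496 to 96076825 and 96098264 to 96099686), were both higher. S100A2, a calcium-binding protein, was at 0.0871 and 6.37 (73.2-fold higher, 66.3 to 81.0), and S100A6 at 12.4 and 50.1. S100A2 had a UMI in 0.966% of thinned cells at d1 and 26.3% at d7, against 0% and 0.698% of immune cells. SFN, an epithelial member of the 14-3-3 family, was at 0.359 and 1.88, and LGALS3, a galectin, at 24.9 and 64.0. Counts of near-identical gene copies may be split between them by the mapping, which makes members of such families less certain.

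Most cell cycle genes and some crypt genes were higher at d7. Of 26 cell cycle genes, 20 were at least 2-fold higher (76.9%, against 4.47% of all genes) and 0 lower, with a median of 1.43. CENPF, a kinetochore protein of dividing cells, was at 0.322 at d1 and 2.86 at d7 (8.89-fold higher, 8.32 to 9.49), TOP2A, the topoisomerase of dividing cells, at 0.249 and 1.53, UBE2C at 0.211 and 1.51, and the cyclin CCNB1 at 0.0787 and 0.731. In immune cells CENPF was at 0.307 and 1.58, TOP2A at 0.278 and 1.66, UBE2C at 0.249 and 1.05 and CCNB1 at 0.0293 and 0.204. Of 8 crypt and stem cell genes, 4 were at least 2-fold higher (50%, against 4.47% of all genes) and 0 lower. OLFM4, a secreted marker of crypt base cells, was at 3.78 and 26.0 (6.87-fold higher, 6.74 to 7.01) and had a UMI in 14.0% and 42.8% of thinned cells, against 1.81% and 1.52% of immune cells. SMOC2, a matrix protein of stem cells, was at 0.0151 and 0.479 (31.8-fold higher, 24.7 to 41.5), ASCL2, a stem cell transcription factor, at 0.107 and 0.903, and SOX9 at 0.143 and 0.495. Without cells holding other-cell markers the median log2 ratio of the crypt list was 0.22, against 0.81. The ratio of OLFM4 went from 2.75 to 1.78 there, that of ASCL2 from 2.27 to 0.75 and that of SMOC2 from 2.33 to 1.88. That of SOX9 went from 1.29 to 1.61.

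The cycling gate took a larger share of the cells at d7. It asked for at least 3 UMIs and 2 genes among MKI67, TOP2A, CENPF, CDK1, UBE2C, NUSAP1, BIRC5 and TPX2. After thinning each cell to 1000 UMIs, which left out 209 shallower cells at d1 and 26 at d7, it took 66 of 3934 cells at d1 (1.68%, 1.30 to 2.13) and 42 of 297 at d7 (14.1%, 10.4 to 18.6). In immune cells it took 1.20% and 6.41%. Thinned to 2000 UMIs the epithelial shares were 2.68% and 23.1%, and without thinning 7.43% and 39.9%. At d7, 13 thinned cells lay at the limit and 5 lay 1 UMI below it, and at d1, 28 and 28. An alternative chosen after the data were seen left out every cell that passed the gate without thinning, 308 at d1 and 129 at d7, which were also deep cells with a median of 19280 and 25937 UMIs. Since cell cycle genes make up the gate, leaving these cells out lowers that list by construction, and its median of 1.43 became 0.18. The median of the crypt list became -0.07 in this setting, from 0.81. It was 0.55 in cells of none of the 4 gates and 0.53 within cycling-gate cells. The medians 0.18 and -0.07 cover only the members that entered in this setting. The medians 0.55 and 0.53 cover the 8 crypt genes that entered in the main setting, so they cannot be compared directly with -0.07. OLFM4 had a log2 ratio of 1.07 without the cycling-gate cells and was at 3.46 at d1 and 12.04 at d7 in cells of none of the gates. The log2 ratios of APOA1 (-5.76) and ANPEP (-3.35) stayed far below 0 without the cycling-gate cells. Of the 246 higher genes, 137 were still at least 2-fold higher without these cells, and of the 303 lower genes, 231 still lower by that fold.

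**Figure D3:**
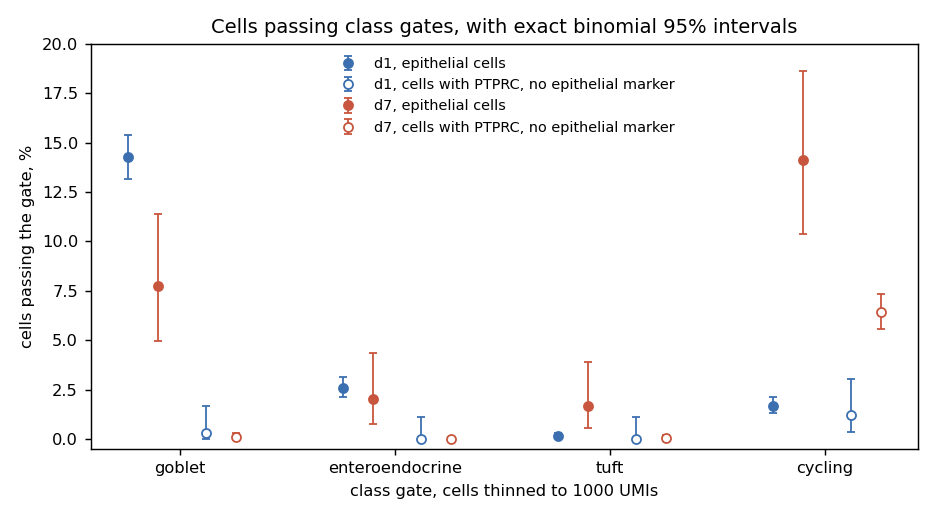
Share of cells in percent that passed each gate after thinning to 1000 UMIs, at d1 and d7, with exact 95% intervals, filled for epithelial cells and open for PTPRC-positive immune cells. The cycling share of epithelial cells was 1.68% at d1 and 14.1% at d7, and the goblet share 14.3% and 7.74%.

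Genes of the goblet list differed between the ages in both directions. The gate (at least 3 UMIs and 2 genes among MUC2, CLCA1, ZG16, SPINK4, FCGBP and TFF3) took 561 of 3934 thinned cells at d1 (14.3%, 13.2 to 15.4) and 23 of 297 at d7 (7.74%, 4.97 to 11.4), against 0.301% and 0.0951% of immune cells. At 2000 UMIs per cell the shares were 16.4% (15.2 to 17.7) and 12.5% (8.78 to 17.0), and unthinned 42.0% and 39.9%, so whether goblet cells differed in share depended on the depth used. At the limit lay 34 thinned cells at d1 and 2 at d7, with 78 and 3 cells 1 UMI below it. Of 19 goblet genes, 4 were at least 2-fold lower and 4 higher, with a median of 0.14. These were 21.1% each, against 5.51% and 4.47% of all genes. The list also held membrane mucins that were not particular to goblet-gate cells. Without thinning, MUC13 was at 6.58 in goblet-gate cells at d1 and at 5.89 in cells of none of the 4 gates. MUC12 was at 0.562 and 0.682 in these sets and MUC4 at 0.116 and 0.138, against 5.46 and 0.176 for AGR2.

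TFF3, the trefoil peptide that is secreted with mucus, was at 32.1 at d1 and 10.6 at d7 (3.03-fold lower, 2.97 to 3.10), and CLCA1, a mucus-processing protease, at 9.80 and 2.22 (4.41-fold lower). FCGBP, a mucus protein, was at 1.73 and 0.738, and MUC2, the gel-forming mucin, at 4.29 and 2.25. MUC13, a mucin fixed in the membrane, was at 6.17 and 0.936 (6.58-fold lower). On the other side, REG4, a secreted lectin of secretory cells, was at 1.61 and 7.66 (4.75-fold higher), AGR2, a chaperone of mucin folding, at 3.41 and 10.5 (3.09-fold higher), and the membrane mucins MUC12 and MUC4 at 0.579 and 1.42 and at 0.125 and 0.368. SPINK4 was at 5.07 and 6.18.

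These goblet values at d7 rested on few cells. For TFF3, 57.9% of the d7 UMIs lay in 5 cells, for CLCA1 77.0%, for FCGBP 77.5%, for REG4 59.1% and for AGR2 62.7%. Within the cells that passed the gate unthinned, 1742 at d1 and 129 at d7, TFF3 was at 52.3 and 16.1, CLCA1 at 16.0 and 3.40, AGR2 at 5.46 and 15.4 and REG4 at 2.60 and 11.3. TFF3 and CLCA1 are genes of this gate, so their levels there depend on the choice of cells. Leaving out cells holding other-cell markers left 58 cells at d7. In that setting the log2 ratio of AGR2 went from 1.60 to 0.20, that of REG4 from 2.18 to 0.79 and that of MUC12 from 1.16 to -0.24. Those of TFF3, CLCA1 and FCGBP went from -1.59 to -3.12, from -2.09 to -5.74 and from -1.13 to -3.32. In goblet-gate cells only, AGR2 had a log2 ratio of 1.48 and REG4 of 2.07. The setting can also leave out goblet cells, since its limit of 2 UMIs was not scaled to depth. Why these ratios moved was not tested. At d1, TFF3 had a UMI in 23.2% of thinned epithelial cells and in 15.1% of immune cells, so much of its spread over cells there was shared with cells of another type.

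Enteroendocrine hormones were lower at d7, on a small number of cells. The gate (CHGA, CHGB, SCG2, SCG5, PCSK1N and NEUROD1) took 102 thinned cells at d1 (2.59%) and 6 at d7 (2.02%, 0.745 to 4.35), and 0 immune cells. The shares thus differed by less than their counting error. Of 6 genes of the list that entered, 4 were at least 2-fold lower and 0 higher, with a median of -1.86. The 4 were 66.7% of these genes, against 5.51% of all genes. They were PYY, SST, GCG and CHGB. The log2 ratio of CHGB, a gene of the gate, was -1.09, and it became 0.55 without cells holding other-cell markers. In the unthinned gate cells CHGB was at 52.2 at d1 and 52.7 at d7. PYY, a satiety hormone of the distal gut, was at 3.16 at d1 and 0.105 at d7 (30.1-fold lower, 24.1 to 38.0), with 96.2% of its 78 UMIs at d7 in 5 cells. SST, somatostatin, was at 2.25 and had 3 UMIs at d7 (ratio 556, 190 to 2695), and GCG, the precursor of glucagon-like peptides, was at 0.535 and had 2 UMIs (ratio 198, 54.8 to 1638). CHGA, a granule protein that these cells share, was at 0.751 and 0.385. In the gate cells themselves, 134 at d1 and 8 at d7 before thinning, PYY was at 179 and 13.1 and SST at 64.1 and 0.597. CHGA was at 44.2 and 56.5 there, but it is a gene of the gate, so its level follows in part from the choice of cells. The gate did not hold all SST RNA. In cells of none of the 4 gates at d1, SST was at 2.75, against 0.307 for PYY and 0.0264 for GCG. Without secretory-gate cells the log2 ratio of SST was -4.71. The tuft gate (POU2F3, TRPM5, SH2D6, SH2D7, GNG13 and AVIL) took 5 thinned cells at each age, 0.127% at d1 and 1.68% at d7 (0.549 to 3.88). Of these, 2 lay at the limit at each age, and the gate took 0% and 0.0317% of immune cells. The summed level of the 21 tuft list genes was 1.16 at d1 and 1.15 at d7.

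Some antimicrobial and mucosal defence genes were higher at d7. Of 13 that entered, 6 were at least 2-fold higher (46.2%, against 4.47% of all genes) and 0 lower, with a median of 0.85. BPI, which binds and permeabilises Gram-negative bacteria, was at 0.741 at d1 and 14.9 at d7 (20.1-fold higher, 19.3 to 20.9), with a UMI in 2.49% and 29.6% of thinned cells and in 0% and 1.33% of immune cells. The complement proteins C3 and CFB were at 1.40 and 5.24 and at 0.461 and 1.62, PI3, the protease inhibitor elafin, at 4.53 and 14.3, and LGALS9, a galectin, at 1.17 and 3.32. DMBT1, a mucosal scavenger that binds bacteria, was at 18.2 and 22.3, within 2-fold. LYZ, lysozyme, was at 0.0675 and 0.935, but immune cells held 2.55 and 3.42, and its log2 ratio of 2.63 became 1.01 without cells holding other markers.

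Further defence-related genes stood among the largest differences of all genes. FCN2, a ficolin lectin that recognises bacterial sugars, was at 5.61 and 40.8 (7.27-fold higher, 7.15 to 7.39) and had a UMI in 14.0% and 50.5% of thinned cells, against 2.41% and 3.11% of immune cells. SPINK1, a trypsin inhibitor, was at 0.628 and 8.27 (13.2-fold higher), and CFI, a complement regulator, at 0.374 and 2.42. At d7 FCN2, BPI and SPINK1 were higher in cycling-gate cells than in cells that passed none of the 4 gates, with FCN2 at 57.6 and 12.7, BPI at 20.9 and 3.10 and SPINK1 at 11.7 and 4.76, whereas FABP1 was at 61.2 and 124. Cells of no gate were also much shallower, with a median of 3405 UMIs against 25937. At d7 they also held more RNA of some other cell types. HBB was at 39.2 in cells of no gate and 0.606 in cycling-gate cells. The 6 fibroblast, pericyte and smooth muscle markers that entered summed to 3.92 and 0.0555. The 1 T and NK cell marker that entered was at 2.85 and 0.408, while that of B and plasma cells was at 0.259 and 0.529. The part of this in the differences between gates was not tested. CCL20, the chemokine that draws lymphocytes to the epithelium, was lower over all epithelial cells, at 4.73 at d1 and 0.349 at d7 (13.5-fold lower). It was at 5.17 at d0 and 3.72 at d21.

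Many interferon response genes were higher at d7 in the epithelium, and several of them in immune cells too. Of 22 that entered, 12 were at least 2-fold higher (54.5%, against 4.47% of all genes), with a median of 1.02. The 1 lower gene was 4.55% of them, near the 5.51% of all genes. IFI6 was at 1.13 at d1 and 13.9 at d7 (12.4-fold higher), with 4.67 and 28.1 in immune cells. ISG15, a ubiquitin-like modifier, was at 1.05 and 6.98 (immune cells 2.20 and 9.20), MX1, an antiviral GTPase, at 0.146 and 1.59 (immune cells 0.403 and 3.46), and EPSTI1 at 0.101 and 0.928. ISG12(A), which was not in the list but among the largest differences, was at 1.95 and 20.3 (10.4-fold higher, 10.2 to 10.7) with 0.886 and 0.624 in immune cells. IRF1, the factor that answers interferon early, was at 1.21 and 0.443. The IFI6 log2 ratio was 3.52, and 3.22 without cells holding other markers. The list gave a median of 0.0749% of a cell's UMIs at d1 and 0.291% at d7, where 84.2% of cells lay above the d1 median. Antigen presentation genes had 1 of 17 genes lower by 2-fold (5.88%, against 5.51% of all genes) and 0 higher. The lower gene, SLA-DRA, was at 0.447 and 0.152. Immune cells held 51.0 and 12.4 of SLA-DRA, and its log2 ratio of -1.12 became 0.08 without cells holding other markers.

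**Figure D4:**
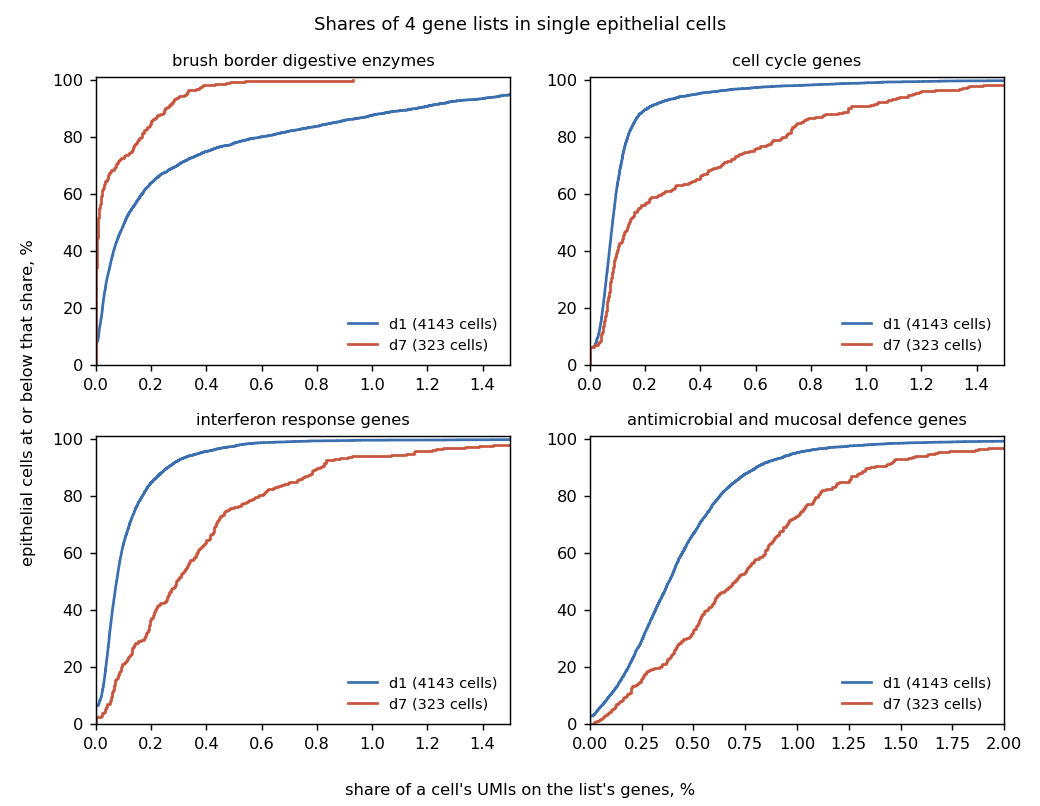
Cumulative share of epithelial cells (vertical axis) by the percent of a cell's UMIs on the genes of a list (horizontal axis), for 4143 cells at d1 and 323 at d7. For brush border enzymes the median went from 0.104% at d1 to 0.00837% at d7, and 33.1% of d7 cells held no UMI of the list against 7.87% at d1, while for interferon and antimicrobial genes the d7 curve lies to the right.

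Metabolic lists varied in how far they differed. Of 22 nuclear-encoded subunits of the respiratory chain, 0 passed 2-fold in either direction, against 4.47% higher and 5.51% lower of all genes. Of these subunits, 19 had a log2 ratio above 0, with a median of 0.57. Among 19 genes of fatty acid oxidation, ketogenesis and gluconeogenesis, 1 was at least 2-fold higher and 2 lower. These were 5.26% and 10.5%, against 4.47% and 5.51% of all genes. PCK1, of gluconeogenesis, was at 0.528 and 0.0985. In the list for xenobiotics, retinoids and glutathione, 4 of 19 were at least 2-fold higher and 2 lower. These were 21.1% and 10.5%, against 4.47% and 5.51% of all genes. TXN, the redox protein thioredoxin, was at 12.9 and 44.0 (3.42-fold higher), NQO1, a quinone reductase, at 0.166 and 1.53, GSTA1, a glutathione transferase, at 0.182 and 1.08, and ALDH1A1, which makes retinoic acid, at 0.206 and 0.536. ABCB1, an efflux pump, was at 0.568 and 0.0607, and TIPARP, a target of the aryl hydrocarbon receptor, at 2.84 and 0.681. Of the 5 iron genes that entered, 0 passed 2-fold, against 4.47% higher and 5.51% lower of all genes. So few genes cannot tell this count from the background. The ferritin chains FTH1 and FTL were at 58.8 and 47.1 and at 28.5 and 48.4.

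Genes that respond to handling of tissue differed as well. Of 23 immediate early and heat shock genes, 7 were at least 2-fold lower at d7 and 1 higher, with a median of -0.75. These were 30.4% and 4.35%, against 5.51% and 4.47% of all genes. ATF3 was at 9.70 at d1 and 1.69 at d7, FOSB at 14.3 and 2.73, and JUNB at 15.8 and 3.23. HSPA6, an inducible heat shock protein, was at 0.778 and 5.80, and in immune cells at 0.491 and 11.7. Their part in the other differences was not tested.

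Set within the 5 ages, the genes fell into different courses. At d14 and d21 the same rule took 207 and 824 cells, and at d0 5519. The sets at d14 and d21 differed in makeup from that at d7. CDH17 was at 0.763 and 0.410 there and VIL1 at 0.740 and 0.589, whereas CLDN3 (3.00 and 3.64) and CLDN7 (9.81 and 7.82) stayed closer to d7. B and plasma cell markers summed to 5.23 at d14, and T and NK cell markers to 6.99 at d21. The median mitochondrial share was 0.296% at d14 and 1.71% at d21, against 6.70% at d7. The part of this in the courses was not tested. APOA1 was at 12.1 at d0 and 0.0892 and 0.0896 at d14 and d21, and ANPEP at 3.90, 0.0202 and 0.0456. At d7 APOA1 was thus below and ANPEP above its later levels, and both were far below their levels at d0 and d1. OLFM4 was at 0.469 at d0, 73.8 at d14 and 39.8 at d21, BPI at 0.456, 39.2 and 16.2, and FCN2 at 3.45, 78.0 and 81.3, each with d7 between d1 and the later ages. SLC9A3 was at 1.12, 0.124 and 0.179, which like FABP1 was highest at d7. IFI6 was at 0.649, 7.37 and 22.2, and ISG15 at 0.713, 1.74 and 5.79, without a steady course.

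**Figure D5:**
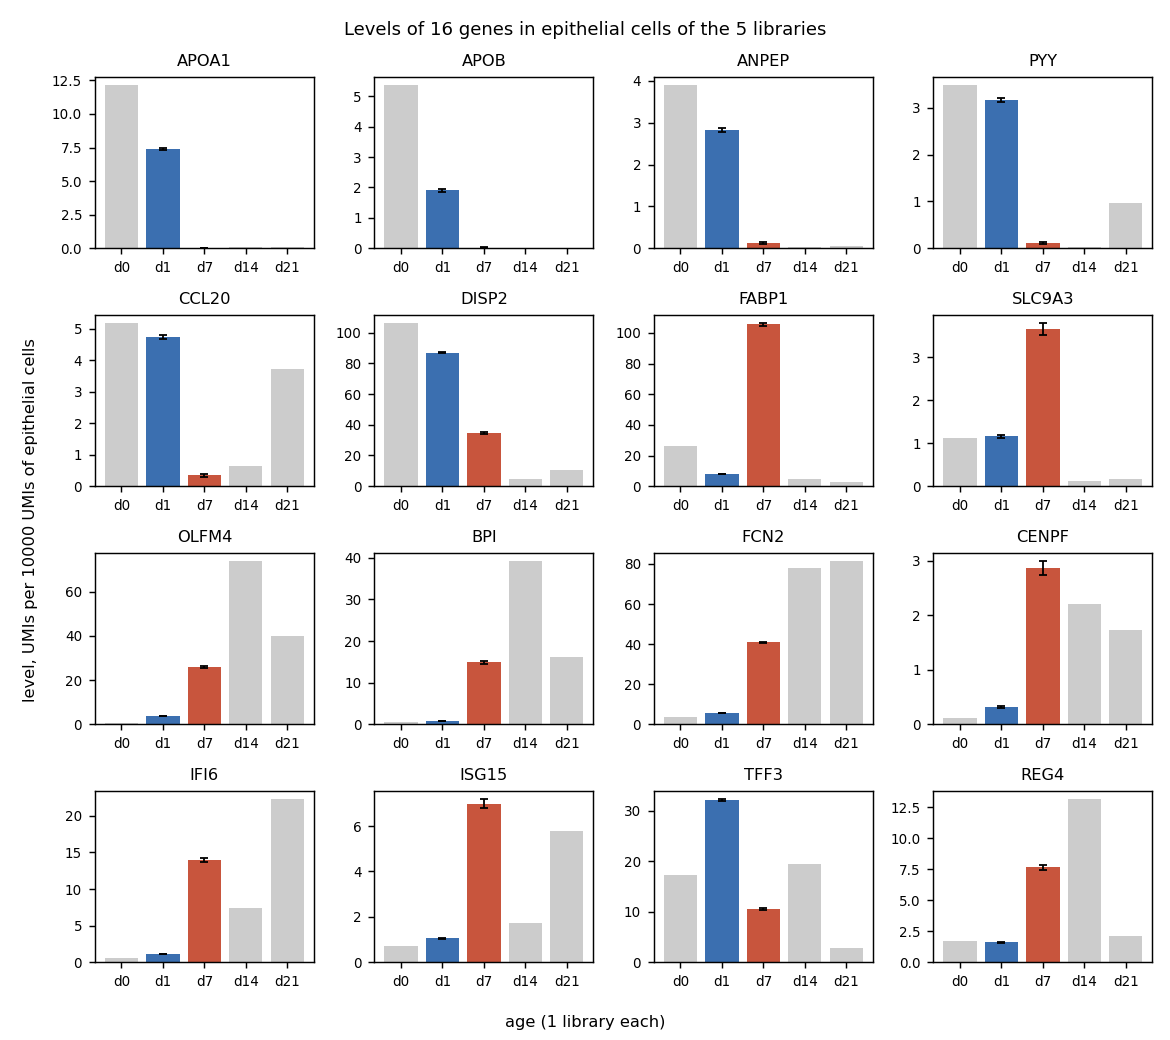
Summed level of 16 genes in epithelial cells (UMIs per 10000, each panel on its own axis from 0) at d0, d1, d7, d14 and d21, 1 library per age, with exact 95% counting intervals at d1 and d7. APOA1, APOB and ANPEP are high at d0 and d1 and near 0 from d7 on, OLFM4 and BPI peak at d14, and FABP1 stands highest at d7 with 105.

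The gates taken without thinning were not separate classes of cells. The goblet gate then took 42.0% of the cells at d1, 58 of the 129 goblet-gate cells at d7 also passed the cycling gate, and at d1 the summed level of the brush border list was 26.7 in goblet-gate cells and 26.5 in cells of none of the gates. Within these overlapping sets, the brush border list had a median log2 ratio of -2.33 in cells of no gate, -2.04 in goblet-gate cells and -1.42 in cycling-gate cells, and the interferon list 0.85, 1.04 and 1.17. The limit of 2-fold itself was missed by some genes when classes of cells were left out. Without cycling-gate cells these included C3 (log2 ratio 0.74), SOX9 (0.76), SMOC2 (0.52), DISP2 (-0.63), SLC26A3 (-0.37), S100G (-0.97), ESPN (-0.56), EPS8L3 (-0.73), and FCGBP (-0.45). Without secretory-gate cells they included LGALS3 (0.53), CLDN4 (-0.88), CLCA1 (-0.97), FCGBP (-0.30), GCG (-0.34) and ALDH1A1 (0.80), of which CLCA1 and FCGBP are genes of the goblet gate itself. In cells of none of the 4 gates LGALS3 was at 25.2 at d1 and 76.2 at d7. Without cells holding other-cell markers they included ASCL2 (0.75), KRT20 (0.70), SLC9A3 (0.92), CTSH (0.74) and ALDH1A1 (0.71). Several of the largest differences belonged to genes known here only by a locus number. LOC100524999 was at 1.80 at d1 and 36.5 at d7, LOC100154873 at 0.142 and 4.66, LOC100517891 at 0.749 and 7.71, and LOC110256043 at 0.289 and 2.92. LOC100739218, on chromosome 2 (149400864 to 149406484) near SPINK1 (149072652 to 149079529), was at 0.520 and 7.81, and was at 15.2 at d14, where SPINK1 was at 9.03.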

How the data were processed

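The authors deposited 1 matrix of raw counts of UMIs per gene and barcode for each library, without normalization. The submitters' processing notes name Cell Ranger 3.1.0, STAR and the build susScr11. Fewer cells were forced in Cell Ranger, by the study's methods, than there are barcodes in the matrices. The kit version differs between the labels and the methods. The matrices held 20648 genes and were read with Python 3.11.15, NumPy 2.4.6, SciPy 1.17.1 and pandas 2.3.3.

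Cells were selected as described, and their counts summed per library. Doublets were not removed in the main setting; as an alternative the cells of highest Scrublet score (scanpy 1.11.5), 0.8% per 1000 cells of a library, were left out. Levels carry exact Poisson and shares exact Clopper-Pearson 95% intervals. For shares, cells were thinned to 1000 UMIs. With 1 library per age no test was run. The sums were tested on simulated data. Gene positions are those of RefSeq on Sscrofa11.1, matched by symbol.

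The cells and the 31 gene lists were chosen with earlier results of these data known. Named were up to 4 genes per list and direction past 2-fold, the 20 largest and 20 lowest ratios among genes with a mean level of at least 1, the 10 highest genes per age with mitochondrially encoded and ribosomal protein genes left out, the genes of the rule, and genes the study names. Genes within 2-fold, and CFB, LGALS9, DMBT1, MUC2, SPINK4, DPEP1, ENPEP, TMIGD1, CDX2 and the immediate early genes, were named from the lists after their values were seen. Some genes that this choice names are not reported here.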

Additional observations from a re-analysis of the deposited data

How the results depend on the processing

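With 1 pool of piglets per age, no difference could be set against the spread between piglets, and no replicate could be left out. No paired analysis was possible because each age has 1 library and no replicate number. Depth limits genes under a level of 0.00405 at d7, where few cells were left. The count of genes at least 2-fold higher at d7, 246, was 58 with 1 added to levels in place of 0.1 and 105 for genes with a mean level of at least 1. The count of lower genes, 303, was 76 and 107 under these settings, 460 with no filter on low genes, and 470 without cells with at least 2 UMIs of other-cell markers. The other alternatives gave 211 to 363 higher and 285 to 426 lower genes. Scaling by the median of ratios gave 211 higher and 324 lower genes. Of 106 named genes past 2-fold, 50 kept 2-fold and 103 kept their direction in all 17 alternatives. The log2 ratios that changed sign were those of CHGB (0.55), MUC12 (-0.24) and SLA-DRA (0.082) without cells holding other-cell markers, and of MUC12 (-0.17) without cells of the goblet, tuft or enteroendocrine gate; the cause was not tested. List medians ranged from -2.70 to -0.88 for brush border enzymes, from -4.71 to -0.04 for enteroendocrine genes and from 0.32 to 2.62 for interferon genes. Each alternative took only the members that entered in it, so the genes behind a median could change. Without secretory-gate cells, the enteroendocrine median of -4.71 was the log2 ratio of SST. For genes with a mean level of at least 1, the interferon median of 2.62 was that of ISG15. Keeping cells with any PTPRC UMI, leaving out cycling-gate cells and taking only goblet-gate cells were chosen after the data were seen.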
